A study of Mus musculus with 2 samples.

Results

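The genes described here are the long intergenic noncoding RNA (lincRNA) genes of the mouse, apart from a few that are usually treated on their own. They are all genes typed lincRNA in the mm9 GENCODE vM1 annotation except Malat1, Neat1, Meg3, Rian, Mirg and H19 and except genes on chromosomes X and Y. The annotation holds 1273 lincRNA genes, of which 3 carried an excluded name (Meg3, Rian and Mirg) and 41 lay on a sex chromosome, so that 1229 genes remained of 37310 annotated genes of all types.

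The study mapped RNA bound by Mbnl2 with HITS-CLIP, in which ultraviolet light links a protein to the RNA it touches and the protected RNA fragments are sequenced after immunoprecipitation. The tissue was quadriceps muscle of mice aged 15 to 16 weeks, labelled C57BL/6, that were either WT or homozygous for a knockout of Mbnl1 (Mbnl1-/-, called Mbnl1 KO). Both genotypes keep Mbnl2 and neither was treated. The question was where Mbnl2 sits on RNA in muscle when its paralog Mbnl1 is present and when it is missing. Tags from 3 mice of each genotype had been merged into 1 table, so the spread between mice cannot be seen. For this reason no test between genotypes or p-value is given. RNase A was used at a high level (38.6 U/ml) and a low level (0.0386 U/ml). The sources used here do not say whether a table holds tags from 1 or both of these digests.

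A lincRNA is transcribed from its own locus between protein-coding genes and is often spliced and polyadenylated like a messenger RNA, but it encodes no known protein. Some lincRNAs act in the nucleus on chromatin or on splicing factors, some act in the cytoplasm as binding platforms for microRNAs and proteins, and others mainly carry snoRNAs (small RNAs that guide the chemical modification of ribosomal RNA) in their introns. Muscleblind-like (Mbnl) proteins are zinc finger proteins that regulate splicing, polyadenylation and localization of muscle transcripts, and they are known to prefer a GC step flanked by pyrimidines, searched for here as TGCT or CGCT and as TGCC or CGCC on the strand of the tag, with any overlap allowed.

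The WT table held 343554 tags and 476543 were held by the Mbnl1 KO table, each 18 to 33 nt long. Some tags of a table share position and strand, and collapsing these left 317893 in WT and 407846 in Mbnl1 KO. Tags whose reference sequence was at least 70% a single base (single-base tags) came to 44.0% of the tags on assembled chromosomes in WT and 16.97% in Mbnl1 KO. Levels are given per 1000000 tags of the table, and values without single-base tags are scaled to the tables without them. A ratio is the Mbnl1 KO level over the WT level, with its exact 95% Clopper-Pearson interval, which covers counting error only. More RNA, more Mbnl2 on each RNA and more cells of a type cannot be told apart in such counts. All 11 skeletal muscle fibre markers had tags, 1044 in WT and 3802 in Mbnl1 KO, and the 4 fibroblast markers had 182 and 792. Endothelial markers had 37 and 87, fat markers 2 and 18, Schwann cell markers 6 and 14, leukocyte markers 9 and 8, satellite cell markers 8 and 11 and blood markers 5 and 6, and the part of these other cells in any lincRNA value was not tested. Tags lay over Mbnl1 itself in both tables, 100 in WT and 452 in Mbnl1 KO, which does not bear on the deletion because a tag can come from any remaining stretch of the transcript.

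Mbnl2 tags on lincRNAs were few and concentrated in few genes. A tag on the strand of the gene lay over 734 of the 1229 lincRNA genes, over 522 in WT and over 600 in Mbnl1 KO, with 388 found in both tables. The other 495 had none. Pooled over both tables, 483 genes had 1 to 4 tags, 180 had 5 to 19 and 71 had at least 20, or 40 genes once single-base tags were left out. The genes with at least 20 tags were long, with a median body of 169891 nt against 8227 nt for all 1229. Together the lincRNA bodies took 0.704% of the WT tags (2418) and 0.780% of the Mbnl1 KO tags (3717).

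Sequences of 5 of the most tagged stretches outside other annotated genes are printed first, because later values refer to them. They are clusters, which here means stretches covered without a gap by tags of the same strand from either genotype, leaving out single-base tags, and are written 5′ to 3′ on the strand of the gene with the 4 searched motifs in capitals. The first 4 come from the last exon of 1700020I14Rik, the lincRNA with the most tags, and the fifth from an intron of Gm16724, the next. Coordinates are mm9, in the order of the lines: chr2:119428344-119428476, chr2:119430752-119430926, chr2:119429602-119429647, chr2:119427887-119427978 and chr17:71313008-71313170, all on the plus strand.
1700020I14Rik, summit cluster: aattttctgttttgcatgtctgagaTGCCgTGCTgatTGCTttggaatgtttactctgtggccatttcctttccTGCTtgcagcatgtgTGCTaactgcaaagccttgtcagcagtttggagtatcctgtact
1700020I14Rik, second cluster: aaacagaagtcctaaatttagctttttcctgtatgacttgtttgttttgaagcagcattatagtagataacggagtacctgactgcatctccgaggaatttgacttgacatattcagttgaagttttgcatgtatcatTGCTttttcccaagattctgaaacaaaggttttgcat
1700020I14Rik, short cluster: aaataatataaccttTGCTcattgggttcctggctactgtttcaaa
1700020I14Rik, cluster at the miR-7 site: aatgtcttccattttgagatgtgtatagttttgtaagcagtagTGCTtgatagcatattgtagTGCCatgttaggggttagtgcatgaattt
Gm16724, intronic cluster: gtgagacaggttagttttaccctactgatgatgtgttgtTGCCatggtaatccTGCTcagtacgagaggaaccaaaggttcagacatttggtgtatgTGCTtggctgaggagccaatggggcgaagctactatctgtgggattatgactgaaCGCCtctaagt

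The leading gene, 1700020I14Rik (ENSMUSG00000085438.1), is listed in the RefSeq gene table as a synonym of Oip5os1, a conserved cytoplasmic lincRNA also known as Cyrano. It spans chr2:119420033-119433238 on the plus strand of mm9, with 3 merged exons of 8306 nt in a body of 13206 nt. In WT it held 112 tags (326 per 1000000) and in Mbnl1 KO 481 (1009 per 1000000). The level was 3.10-fold higher in Mbnl1 KO (interval 2.52 to 3.84), and 2.11-fold (1.72 to 2.62) without single-base tags, of which it had 0. Every one of 11 alternative settings, scalings included, kept its ratio above 1, between 1.65 and 5.06, with the interval above 1. Protein-coding exons outside chromosomes X, Y and M together had 2.75 (2.71 to 2.80), or 1.95 (1.92 to 1.98) without single-base tags. Both values lie within the intervals of Oip5os1 on the same scale. The gene holds 0.288% of the exon length of the 1229 lincRNAs but 47.7% of their exonic tags. No tag lay on its opposite strand in either table.

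Nearly all of the signal on Oip5os1 lay in its long last exon. Exon 3 (7915 nt, chr2:119425324-119433238) held 581 of the 593 tags, 98.0%, with 109 in WT and 472 in Mbnl1 KO. Exon 2 had 3 and 6, exon 1 had none, and 3 Mbnl1 KO tags lay in introns. Within exon 3 the tags were densest in the middle: the 500 nt from nucleotide 8001 to 8500 held 33 WT and 95 Mbnl1 KO tags, the 500 nt from 11501 to 12000 held 0 and 1. The highest depth was 16 tags in WT at nucleotide 8402 and 41 tags in Mbnl1 KO at nucleotide 8388 from the start of the gene, so both genotypes peaked within the same cluster, the summit cluster printed above.

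**Figure D1:**
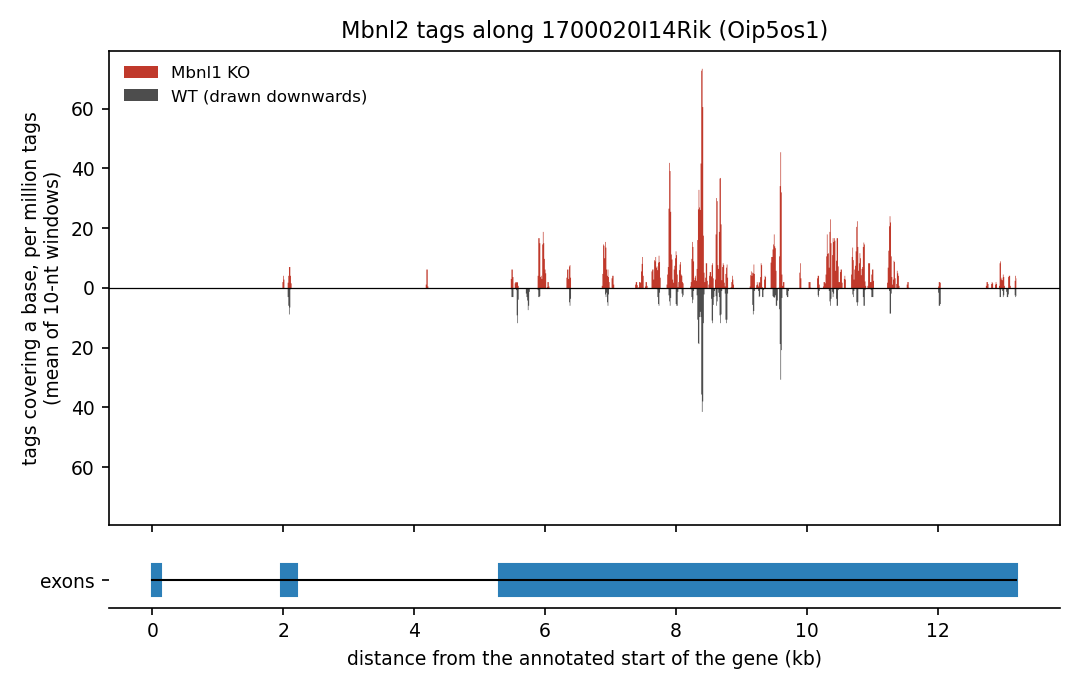
Depth of Mbnl2 tags along 1700020I14Rik (Oip5os1) by distance from the annotated start, in tags per 1000000 tags averaged over 10-nt windows, with Mbnl1 KO drawn upwards and WT downwards and the 3 merged exons underneath. WT peaks at nucleotide 8402 and Mbnl1 KO at 8388, and 581 of 593 tags lie in the last exon.

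Among clusters of the gene picked by their pooled tags, most had ratios above 1, and the number resolved depended on the scaling. Tags fell into 64 clusters, of which 19 had at least 10 tags and together held 74.7% of the tags of the gene. Most of the 19 had fewer than 10 WT tags and were chosen with their Mbnl1 KO tags counted. That choice favours ratios above 1, so the counts that follow describe these clusters only. Scaled to all tags, the 19 had ratios above 1 and 12 had an interval wholly above 1. With the scaling of the tables without single-base tags these counts were 17 and 5, and with scaling to the median protein-coding gene 16 and 5. The summit cluster, with 28 WT and 70 Mbnl1 KO tags, had a ratio of 1.80 (1.15 to 2.90), or 1.23 (0.783 to 1.98) without single-base tags in the scaling. The second cluster, with 4 and 32, had 5.77 (2.05 to 22.4), or 3.94 (1.40 to 15.3) on that other scale. These intervals overlap, so the order of the clusters is not resolved at this depth. The short cluster, with 11 and 22 tags, had 1.44 (0.670 to 3.29), or 0.984 (0.457 to 2.25). One cluster at nucleotides 5947 to 6008 held 12 tags in Mbnl1 KO and 0 in WT, at least 2.88-fold higher with WT set to a floor of 3 counts, while the exact interval starts at 2.003, or at 1.37 on the other scale.

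Mbnl motifs were denser under the tags of Oip5os1 than beside them. At least 1 motif lay within 56.3% of its WT tags (46.6% to 65.6%) and 52.6% of its Mbnl1 KO tags (48.0% to 57.1%). Moving each tag by 500 nt within the gene gave 18.8% (12.0% to 27.2%) and 24.5% (20.7% to 28.6%). Of the 19 clusters with at least 10 tags, 16 held a motif, and they carried 1.79 motifs per 100 nt against 1.15 over the whole gene. The summit cluster held 5 motifs in 133 nt, and 3.15% of windows of that length in the gene hold as many or more. The second cluster held 1, in a gene where 83.4% of windows of 175 nt hold at least 1, so a motif is not a mark of every cluster.

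Oip5os1 is known for a site that pairs almost fully with the microRNA miR-7, and the position of tags at that site was looked up after the clusters had been seen. The mature microRNA (RefSeq, seed bases 2 to 8 in capitals) and the mm9 site at chr2:119427872-119427897 (bases facing the seed in capitals) follow.
mmu-miR-7a-5p: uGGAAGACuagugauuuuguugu
1700020I14Rik, miR-7 site: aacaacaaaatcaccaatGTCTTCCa

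Of the 23 bases of miR-7a-5p, 21 can form Watson-Crick pairs with this site around a loop of 2 nt, and the only other seed match in the gene pairs 12 bases. The site itself had 0 WT and 3 Mbnl1 KO tags, and 2 and 27 lay over it or within 50 nt. The cluster that begins inside the site had 2 tags in WT against 30 in Mbnl1 KO (ratio 10.8, interval 2.74 to 93.4), or 7.38 (1.87 to 63.7) without single-base tags in the scaling. Most of these tags cannot be placed with certainty: only 3 of the 32 have a sequence that occurs once in the mm9 genome, the others occurring at 2 places. By the same count 88 of the 98 tags of the summit cluster, all 36 of the second and all 33 of the short cluster occur once. Over the whole gene 529 of 593 tags occur once, 100 in WT and 429 in Mbnl1 KO, with a ratio of 3.09 (2.48 to 3.88), or 2.11 (1.69 to 2.65) without single-base tags in the scaling.

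Across all 1229 lincRNAs, the genotypes differed over exons, and over introns the result depended on the scaling. Exons had 311 tags in WT against 925 in Mbnl1 KO (ratio 2.14, interval 1.88 to 2.45). Introns had 2107 and 2792, a ratio of 0.955 (0.902 to 1.01). Without single-base tags the exon ratio was 1.62 (1.41 to 1.87) and the intron ratio 0.985 (0.917 to 1.06). The bodies taken whole had a ratio of 1.11 (1.05 to 1.17), which turned to 0.659 when the tables were scaled so that the median protein-coding gene is unchanged and to 0.966 without the 3 genes with most tags. The exon ratio stayed above 1 under those settings, at 1.27 and 1.63, while the intron ratio was 0.568 (0.536 to 0.601) and 0.900. Protein-coding genes outside chromosomes X, Y and M, counted in the same way, had an exon ratio of 2.75 (2.71 to 2.80) and an intron ratio of 1.24 (1.23 to 1.25), both above the lincRNA values with intervals that do not overlap. Without single-base tags the protein-coding values were 1.95 (1.92 to 1.98) and 1.12 (1.103 to 1.129).

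A large part of the exonic excess of the lincRNAs came from Oip5os1. In WT, lincRNA exons had 314 tags per Mb per 1000000 and introns 205, a density ratio of 1.53 (1.36 to 1.73). In Mbnl1 KO the densities were 673 and 196, a ratio of 3.44 (3.19 to 3.71). Without Oip5os1 the density ratio fell to 0.983 (0.846 to 1.14) in WT and 1.67 (1.51 to 1.84) in Mbnl1 KO, and the exon ratio between genotypes to 1.62 (1.37 to 1.92), on 199 WT and 447 Mbnl1 KO tags. Leaving out single-base tags gave density ratios of 2.36 (2.06 to 2.70) in WT and 3.88 (3.58 to 4.20) in Mbnl1 KO. With neither single-base tags nor Oip5os1 these were 1.35 (1.13 to 1.60) and 1.72 (1.54 to 1.92), and the exon ratio between genotypes was 1.25 (1.03 to 1.53). The values without Oip5os1 were added after the data had been seen. Protein-coding exons stood at 804 and 2214 tags per Mb per 1000000 and their introns at 209 and 259, and lincRNA exons lay below protein-coding exons in both tables. The introns of both classes lay close to each other in WT, but without single-base tags lincRNA introns stood at 196 (185 to 208) against 242 (239.8 to 244).

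**Figure D2:**
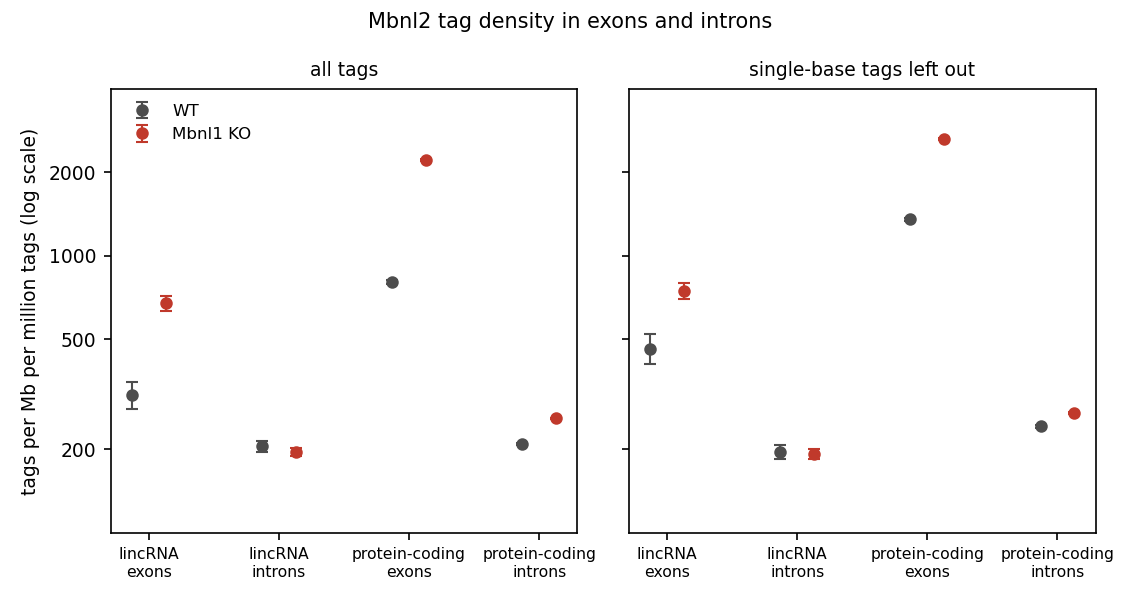
Mbnl2 tag density (tags per Mb per 1000000 tags, log scale) in exons and introns of the 1229 lincRNA genes and of protein-coding genes, with exact 95% intervals, for all tags and without single-base tags. The lincRNA exon points stand apart between WT (314) and Mbnl1 KO (673), and the lincRNA intron points (205 and 196) do not.

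Much of what lies over lincRNA bodies was not plainly lincRNA signal. When each of the 6135 tags was counted once, 42.0% of those in WT and 15.4% of those in Mbnl1 KO were single-base, with a ratio of 0.407 (0.367 to 0.451). Another 164 tags lay over an exon and 236 over an intron of a protein-coding gene on the same strand, 145 over a small RNA gene and 67 over another gene. Tags over a lincRNA exon and no other gene numbered 235 in WT and 774 in Mbnl1 KO, at a ratio of 2.37 (2.05 to 2.76), or 1.62 (1.40 to 1.88) when scaled to the tables without single-base tags. Tags over a lincRNA intron and no other gene numbered 1034 and 1892, a ratio of 1.32 (1.22 to 1.42), or 0.900 (0.834 to 0.972) on that other scale, so the direction for introns depends on how the tables are scaled.

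**Figure D3:**
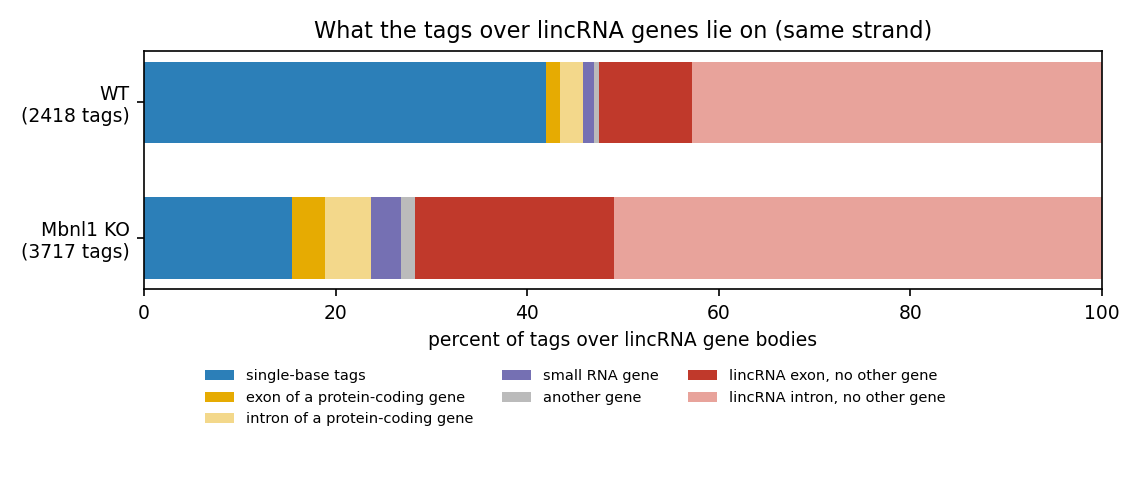
Share of tags over lincRNA gene bodies, in percent, by what lies under each tag on its strand, for WT (2418 tags) and Mbnl1 KO (3717 tags), each tag counted once. Single-base tags take 42.0% of the WT bar and 15.4% of the Mbnl1 KO bar, and tags over a lincRNA exon and no other gene 9.72% and 20.8%.

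The strand of the tags also set limits. Of all tags over lincRNA bodies on either strand, 52.8% in WT (2707 of 5125) and 56.2% in Mbnl1 KO (4764 of 8481) lay on the strand opposite to the gene. Of these 7471 antisense tags, 44.7% lay over a protein-coding gene on their own strand and 3828 over no annotated gene, of which 2500 were not single-base. Of the sense tags that were not single-base and lay wholly within a gene, 78.3% (3552) had a sequence found once in the genome, 89.0% in exons and 74.8% in introns.

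Exonic tags held a motif more often than intronic tags in the full tables, and the gap depended on single-base tags. A motif lay in 43.1% of the exonic tags in WT (37.5% to 48.8%) and in 47.2% in Mbnl1 KO (44.0% to 50.5%), against 25.7% and 27.8% for the shifted positions. Without Oip5os1 the exonic shares were 35.7% (29.0% to 42.8%) and 41.2% (36.6% to 45.9%), against 29.6% and 31.1% for shifted positions, and only the Mbnl1 KO interval lay clear of its shifted value. Intronic tags held a motif in 19.6% in WT (17.97% to 21.4%), no more than shifted positions (21.7%), and in 39.004% in Mbnl1 KO (37.2% to 40.8%). Leaving out single-base tags, which hold no such motif in most cases, brought the WT intron share to 34.6% (31.8% to 37.4%) and the Mbnl1 KO share to 45.8% (43.8% to 47.9%). The exonic shares were then 48.1% (41.9% to 54.3%) and 48.9% (45.5% to 52.3%), so that the intervals of exons and introns overlap in Mbnl1 KO and not in WT. Of the 260 WT exonic tags then left, 112 lay on Oip5os1, and 56.3% of those held a motif. The WT gap without that gene was not computed. With all tags, protein-coding exons stood at 53.4% and 56.6% and protein-coding introns at 28.3% and 45.5%. Without single-base tags these were 55.7% and 56.97% in exons and 41.4% and 50.9% in introns, each above the lincRNA share.

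**Figure D4:**
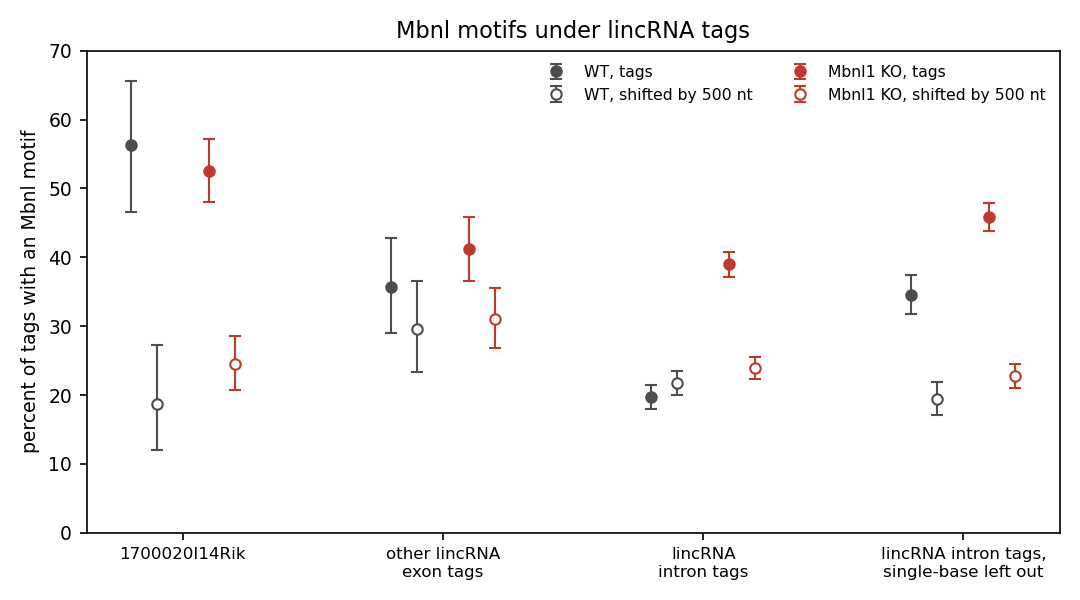
Share of tags, in percent, that hold TGCT or CGCT, or else TGCC or CGCC, on their strand (filled points) and the same share for positions moved by 500 nt (open points), with exact 95% intervals, for WT and Mbnl1 KO. The distance between filled and open points is widest for 1700020I14Rik (56.3% against 18.8% in WT), and the WT intron tags show none until single-base tags are left out.

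Among the 71 lincRNAs with at least 20 pooled tags, 12 were at least 2-fold higher and 10 at least 2-fold lower in Mbnl1 KO, with 0.5 tags added to each count. Among all 4109 genes with at least 20 tags, 40.5% were higher and 3.8% lower by this rule. The median ratio of the 71 was 0.927, against 1.68 for protein-coding genes. Without single-base tags, 6 of 40 lincRNAs were higher and 1 lower, the shares over all genes being 27.8% and 2.79%, and the median was 1.28 against 1.43. Scaled to the median protein-coding gene, 1 of the 71 was higher and 29 were lower, against 14.2% and 14.5% of all genes. With no scaling 21 were higher and 4 lower, against 60.4% and 1.34%. The interval of the gene ratio lay above 1 for 9 of the 71 and below 1 for 6, against 39.3% and 3.89% of all genes. Without single-base tags it lay above 1 for 5 of 40 and below 1 for none, against 27.8% and 1.95%.

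**Figure D5:**
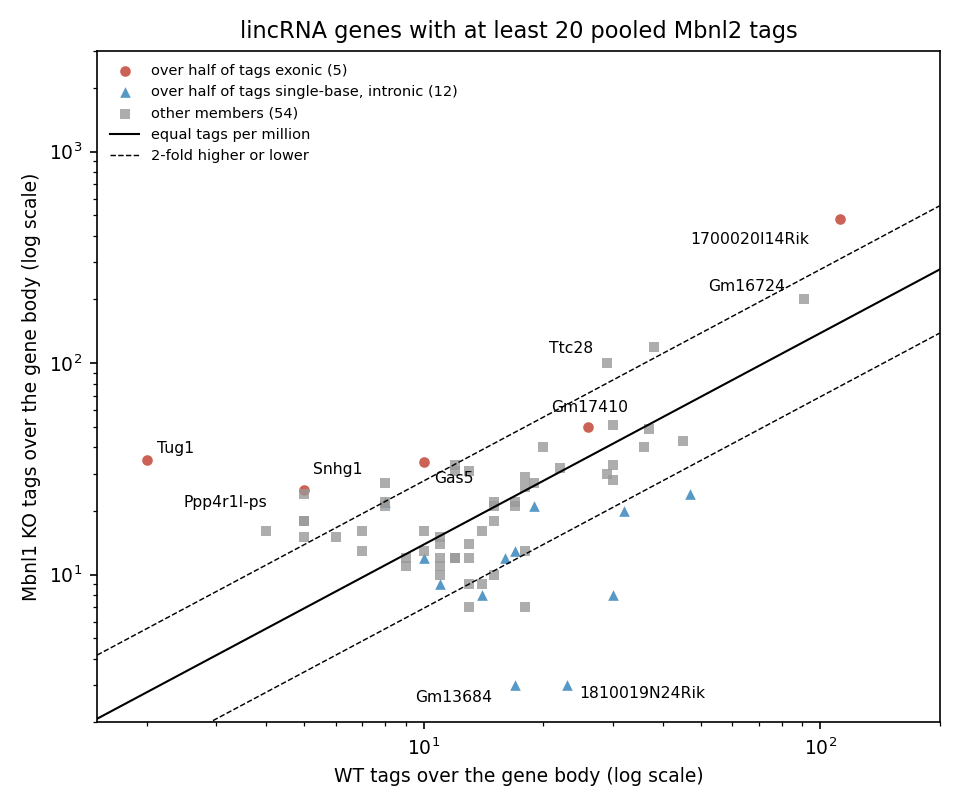
Tags in WT and in Mbnl1 KO (log axes) for the 71 lincRNA genes with at least 20 pooled tags, marked by whether most of the tags are exonic or single-base, with lines for equal tags per 1000000 and for a 2-fold difference. 1700020I14Rik, Tug1, Snhg1 and Gas5 lie above the line of equal levels, and 1810019N24Rik and Gm13684, with single-base tags, lie far below it.

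Among lincRNAs known to act in the nucleus, Tug1 (taurine upregulated 1, a spliced lincRNA linked to chromatin repression) differed most between the tables. Tug1 lies at chr11:3539797-3548815 on the minus strand and had 2 WT and 35 Mbnl1 KO tags, of which 36 were exonic. Its ratio was 12.6 (3.24 to 108), or 7.63 (1.94 to 65.8) without single-base tags, on 2 WT tags in either case. Under 10 alternatives the ratio ranged from 3.13 to 17.5, and the interval lay above 1 in only 8. All 33 tags that were not single-base occur once in the genome. These 33 tags formed 13 clusters, the largest of 5 tags. The 3 clusters of 5 tags each hold 1 motif and lie, in the order of the lines, at chr11:3540954-3541008, chr11:3541614-3541644 and chr11:3542155-3542189 on the minus strand. Windows of their lengths hold a motif in 46.8%, 29.3% and 32.6% of cases within Tug1.
Tug1, 1 WT and 4 Mbnl1 KO tags: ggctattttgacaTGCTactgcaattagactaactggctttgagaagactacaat
Tug1, 0 WT and 5 Mbnl1 KO tags: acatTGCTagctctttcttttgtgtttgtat
Tug1, 0 WT and 5 Mbnl1 KO tags, next: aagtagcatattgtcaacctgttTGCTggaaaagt

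The other long nuclear lincRNAs had ratios with intervals that include 1 when scaled to all tags. Sox2ot, which overlaps the gene of the stem cell factor Sox2, had 37 tags in WT against 49 in Mbnl1 KO (ratio 0.955, interval 0.610 to 1.505). Pvt1, the neighbour of the Myc gene, had 30 and 33, a ratio of 0.793 (0.469 to 1.35). Airn, the antisense transcript at the imprinted Igf2r locus, had 22 and 32, a ratio of 1.05 (0.591 to 1.89). Scaled to the median protein-coding gene, Sox2ot stood at 0.568 (0.363 to 0.895) and Pvt1 at 0.471 (0.279 to 0.8002). None of the tags of these 3 genes lay in an annotated exon, and their clusters reached at most 9 tags without single-base tags. Fendrr (annotated as 1110050K14Rik) had 4 and 4 tags, Rmst 2 and 5, Miat 1 and 3, Trp53cor1 (Gm16197) 1 and 2 and Nespas 0 and 1, too few for a ratio to be read. The 9 matched genes of this list of 18 names had 99 tags in WT against 164 in Mbnl1 KO (ratio 1.19, interval 0.925 to 1.55).

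Among the hosts of small RNAs, tags on the small RNA itself were found in some genes and not in others. Of 27 names listed, 12 matched, and 11 of these had tags, 33 in WT and 110 in Mbnl1 KO, at a ratio of 2.40 (1.62 to 3.66), and 6 of the 11 had any of them over a small RNA gene. Gas5 (growth arrest specific 5), at chr1:162964553-162968670 on the plus strand, had 10 tags in WT against 34 in Mbnl1 KO (ratio 2.45, interval 1.18 to 5.56), or 1.67 (0.808 to 3.80) without single-base tags in the scaling. All 44 tags lay over its snoRNA genes, which take 16.2% of its body. The most tagged was Snord47, with 2 WT and 8 Mbnl1 KO tags over chr1:162968213-162968287, shown here because the cluster runs over nearly the whole snoRNA.
Gas5, cluster over Snord47: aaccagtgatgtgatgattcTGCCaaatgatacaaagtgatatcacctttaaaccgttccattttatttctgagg

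Snhg1 had 5 tags in WT against 25 in Mbnl1 KO (ratio 3.60, interval 1.36 to 12.1), or 2.46 (0.925 to 8.23) without single-base tags in the scaling, and 29 of the 30 lay over snoRNA genes that take 20.9% of its body. Snhg12 had 2 and 4, all 6 over snoRNA genes. Tags over Gas5, Snhg1 and Snhg12 are therefore counted as exonic in this annotation although they lie on snoRNAs, and 1 tag of Snhg1 was the only tag of these 3 genes outside them. Snhg5 had 2 and 11 tags, all 13 over snoRNA genes, but none of these has a sequence found once in the genome: SNORD50 is annotated at 2 places in Snhg5 and also in 9430037G07Rik, 9330159M07Rik and Gm17683 on chromosome 9, and all 53 windows of 20 nt in either copy of Snhg5 occur again elsewhere. The split of SNORD50 tags between these hosts is therefore uncertain. D230017M19Rik had 4 and 16 tags, 18 of the 20 over snRNA genes, and 4 of the 20 occur once.

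No tag lay over a small RNA gene in the other 5 hosts with tags. Snhg17 (annotated as 9430008C03Rik) had 0 WT and 9 Mbnl1 KO tags, all exonic and all found once in the genome. That is at least 2.16-fold higher in Mbnl1 KO against a floor of 3 counts, while the exact interval starts at 1.42, or at 0.971 without single-base tags in the scaling. Snhg4 had 5 WT tags and 1 Mbnl1 KO tag, a ratio of 0.144 (0.00305 to 1.29), or 0.0984 (0.00208 to 0.879) without single-base tags in the scaling. Dleu2, the host of the miR-15a and miR-16 hairpins, had 8 and 21 tags with 6 exonic, a ratio of 1.89 (0.805 to 4.94). Snhg18 (Snord123) had 0 and 2 and Mir124a-1hg (A930011O12Rik) 0 and 1. Of the rest, Snhg15 (Gm11974) had 0 and 2, Snhg7 1 and 0, each with 1 tag over a small RNA gene, and Epb41l4aos (2410004N09Rik) none.

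Of 17 names listed as muscle transcripts, 2 matched a lincRNA gene of the annotation. Carmn (annotated as Gm16908), known from heart and smooth muscle differentiation, had 2 tags in WT against 11 in Mbnl1 KO (ratio 3.97, interval 0.865 to 36.8), all intronic and all found once in the genome. 1600020E01Rik had 8 and 22 tags, a ratio of 1.98 (0.8501 to 5.15), of which 1 and 9 remained without single-base tags. Neither interval lies clear of 1.

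Several of the lincRNAs with the most tags shared them with a protein-coding gene of the same strand. Gm16724, a body of 515207 nt on chromosome 17, had 91 tags in WT against 200 in Mbnl1 KO (ratio 1.58, interval 1.23 to 2.05), or 1.34 (1.01 to 1.79) without single-base tags. Of its 291 tags, 126 lay over Myom1, which encodes the muscle M-band protein myomesin, and 15 over Lpin2, a phosphatidate phosphatase. Without tags over another gene the ratio was 1.081 (0.771 to 1.53) on 60 and 90 tags, and with all 91 and 200 tags it was 0.942 under the scaling to the median protein-coding gene. The cluster of Gm16724 printed above lies in an intron and over no other annotated gene, with 26 WT and 49 Mbnl1 KO tags and a ratio of 1.36 (0.828 to 2.28), or 0.927 (0.565 to 1.55) without single-base tags in the scaling. Only 11 of its 75 tags occur once in the genome, and others occur at up to 8 places. Its letters resemble large-subunit ribosomal RNA, and the part of such RNA in these tags was not tested.

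Gm16953, on chromosome 11, had 38 tags in WT against 119 in Mbnl1 KO (ratio 2.26, interval 1.56 to 3.34), or 1.71 (1.16 to 2.61) without single-base tags, with none in its own exons. Of the 157 tags, 128 lay over Ube2b, a ubiquitin-conjugating enzyme, and without tags over another gene the ratio was 0.887 (0.400 to 2.01) on 13 and 16 tags. 4930448N21Rik had 12 and 31 tags, a ratio of 1.86 (0.930 to 3.98), with 15 over Stox2. Among the 71 lincRNAs with at least 20 tags, 19 overlap a protein-coding gene on their strand and 3 have most of their tags there. Ttc28 had 29 and 100 tags, a ratio of 2.49 (1.63 to 3.90), or 1.87 (1.19 to 3.03) without single-base tags, and is typed lincRNA in this annotation but protein-coding in the RefSeq table. The ratio of Ttc28 was 1.48 (0.969 to 2.32) scaled to the median protein-coding gene and 1.38 (0.735 to 2.77) with tags of at least 2 reads. Its 120 tags without single-base ones were scattered over 89 clusters of at most 4 tags, with 3 WT and 7 Mbnl1 KO tags of the full count in exons.

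The remaining genes among the 15 most tagged were long and mostly intronic, and scaled to all tags their intervals include 1. They were Gm17683 (45 WT and 43 Mbnl1 KO tags, ratio 0.689), Gm14005 (30 and 51, 1.23), Gm16736 (36 and 40, 0.801), 2610307P16Rik (20 and 40, 1.44), Gm16889 (30 and 28, 0.673) and AC152164.1 (12 and 33, 1.98). Without single-base tags the ratios of Gm17683 and Gm16736 moved to 1.25 (0.640 to 2.59) and 1.07 (0.519 to 2.32). Scaled to the median protein-coding gene, Gm17683, Gm16736 and Gm16889 stood at 0.410, 0.476 and 0.4000, and with tags of at least 25 nt Gm17683 and Gm16889 at 0.537 and 0.335, all with the interval below 1. All 45 tags of AC152164.1 lay over another annotated gene of the strand, the processed transcript 2610005L07Rik, so none is left when such tags are left out. Many tags of some of these genes have copies elsewhere in the genome. Only 3 of 46 checked tags of Gm17683, 6 of 42 of Gm16889 and 3 of 42 of AC152164.1 occur once, against 36 of 38 for Gm16736.

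The 5 highest ratios among lincRNAs with at least 20 tags belonged to Tug1, Snhg1, Ppp4r1l-ps, Oip5os1 and D230017M19Rik. Ppp4r1l-ps, a transcribed pseudogene in the RefSeq table, had 5 tags in WT against 24 in Mbnl1 KO (ratio 3.46, interval 1.29 to 11.6), or 2.16 (0.7998 to 7.32) without single-base tags. Its largest cluster had 0 and 7 tags in an exon. Of those 5, Tug1, Snhg1 and Oip5os1 had mostly exonic tags, while D230017M19Rik had none in its exons. The ratio of D230017M19Rik, 2.88 (0.930 to 11.9), was not resolved from 1 and rests on tags over snRNA genes, only 1 and 1 being left without tags over another gene.

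Of the genes with the 5 lowest ratios, all but Gm17245 had mostly single-base tags. 1810019N24Rik had 23 tags in WT against 3 in Mbnl1 KO (ratio 0.0940, interval 0.0181 to 0.311), and Gm13684 had 17 and 3, a ratio of 0.127 (0.0239 to 0.440). None of these tags remained for either gene once single-base tags were left out. Gm17692, with 30 and 8 tags and a ratio of 0.192 (0.0762 to 0.429), kept 1 and 1. 9530036O11Rik, with 47 and 24 and a ratio of 0.368 (0.215 to 0.614), kept 14 and 18, a ratio of 0.633 (0.297 to 1.37). Gm17245, with 18 and 7 and a ratio of 0.280 (0.0990 to 0.703), kept 9 and 5, a ratio of 0.273 (0.0720 to 0.908), and on the 10 of these 14 tags that occur once in the genome the ratio on the same scale was 0.328 (0.0681 to 1.38).

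Clusters of at least 10 tags show the same division. Of 56 such clusters in 29 lincRNAs, 23 consisted mostly of single-base tags, 20 of them runs of A and 3 runs of C. In Gm17683 one such cluster had 16 WT tags and no Mbnl1 KO tag, at least 7.40-fold lower in Mbnl1 KO against a floor of 3 counts, where the exact interval of the ratio reaches up to 0.187. The runs of C showed no resolved difference: the cluster in Gm14005 had 6 WT and 17 Mbnl1 KO tags, and that in 1600020E01Rik 7 and 13. Gm17410, named here after its values were seen, had all 76 tags, 26 in WT and 50 in Mbnl1 KO, in an exonic run of C that was 98.7% single-base, and is the only one of the 5 mostly exonic lincRNAs of this kind. Without single-base tags 34 clusters in 10 lincRNAs remained, 19 of them in Oip5os1, and 7 lay over another annotated gene.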

How the data were processed

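Mbnl2 was profiled by HITS-CLIP in quadriceps of 3 WT mice and 3 Mbnl1 KO mice, merged into 1 table per genotype. The authors removed low-quality reads, aligned to mm9 with BWA (version not given in the sources used here), discarded short sequences and potential PCR duplicates, and merged the mice. Each row is 1 tag, and the authors deposited with it a raw, unscaled count of the reads that were collapsed to that tag. Some rows share position and strand with another row of the same genotype. The methods state a lower length limit of 20 nt, but 855 WT and 920 Mbnl1 KO tags are shorter. Whether a table holds tags of the high RNase digest, the low one or both is not stated in the sources used here.

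Tags were assigned (scipy 1.17.1, pandas 2.3.3, numpy 2.4.6 under Python 3.11.15) to GENCODE vM1 bodies and merged exons on the same strand by any overlap. An exonic tag touches an exon and an intronic tag does not. Levels are tags per 1000000 tags of the table, and ratios have exact 95% Clopper-Pearson intervals covering counting error only (PCR copies are not independent molecules). A gene ratio used for a 2-fold call adds 0.5 tags and needs 20 pooled tags. Single-base tags are at least 70% 1 base in the reference. Motif shares were compared with positions shifted by 500 nt. Tags that are not single-base were searched for in both strands of the mm9 genome, a step chosen after the data had been seen. RefSeq tables gave names and the miRNA sequence, and 622 genes matched. No test between genotypes was possible. Figures were drawn with matplotlib 3.10.9.

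Named genes are the 15 with most tags without single-base ones, the 5 highest and 5 lowest ratios, and matched members of 4 lists (small RNA hosts, nuclear regulators, cytoplasmic regulators, muscle transcripts). The 5 cytoplasmic names include synonyms of Oip5os1, which was the only gene of that list to match. Members and lists were chosen with earlier results of these data known. Counting and intervals were tested on simulated counts of 4109 genes, 200 of them changed, for Mbnl1 KO against WT, and 96.5% of intervals held the true ratio. The simulated counts were independent Poisson counts with no PCR copies and no spread between mice. They check the code and cannot show how the intervals behave in these merged tables. Alternatives were other scalings, tag filters, minimum counts, folds and left-out genes.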

Additional observations from a re-analysis of the deposited data

How the results depend on the processing

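No paired analysis was possible because the mice of each genotype were merged in 1 table, and for the same reason no mouse could be left out. Depth limits most single genes: 71 of 1229 reached 20 tags. The exon ratio between genotypes stayed above 1, with its interval above 1, under all 16 alternatives, from 1.25 to 3.52, and the ratio of Oip5os1 under all 11. None of these alternatives was scaled to protein-coding exons, whose ratio of 2.75 lay above the 2.14 of lincRNA exons. Without single-base tags these were 1.95 and 1.62. The body ratio and the intron ratio did not keep their direction, and neither did the counts of genes past 2-fold keep their size. The cause of a shift was not tested.

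Without scaling, the body, exon and intron ratios were 1.54, 2.97 and 1.33, the median gene ratio 1.29, and 21 genes were higher and 4 lower. Scaled to the median protein-coding gene, which had a ratio of 1.68, they were 0.659, 1.27 and 0.568, the median 0.551, with 1 gene higher and 29 lower, and Gm16724 stood at 0.942. Scaling outside chromosome M and counting by tag midpoint moved no value beyond its interval.

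Without single-base tags, the exon ratio was 1.62, the exon to intron density ratio 2.36 in WT and 3.88 in Mbnl1 KO, the motif share 37.1% and 46.7%, the median gene ratio 1.28, and 6 genes were higher and 1 lower. With identical tags collapsed, the Mbnl1 KO density ratio was 2.91, with 7 of 58 genes higher and 6 lower. With tags of 1 5′ end collapsed, the exon ratio was 1.84, the Mbnl1 KO density ratio 2.72, and 7 of 57 genes were higher and 6 lower. For tags collapsed in either way the shares over all genes were not computed, so these counts are not read as a result.

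With tags of at least 2 reads, the exon ratio was 1.45, the density ratio 3.62 in WT and 5.19 in Mbnl1 KO, the motif share 39.2% and 47.7%, the antisense share 55.1% and 57.2%, the genes with a tag 206 and 329, and the median gene ratio 1.29. Only 18 genes then had enough tags for a call, of which 3 were higher and 1 lower. Leaving out single-base tags in addition, the exon and intron ratios were 1.29 and 1.02, the density ratios 4.22 and 5.33, the motif shares 47.9% and 50.5%, the antisense shares 56.3% and 57.5%, the genes with a tag 176 and 310, and the median 1.23. Of 15 genes with enough tags, 3 were higher and 0 lower. 9530036O11Rik stood at 1.25 on 2 WT and 8 Mbnl1 KO tags. With tags of at least 25 nt, the body, exon and intron ratios were 1.18, 3.52 and 0.901, the density ratios 1.25 and 4.88, the motif shares 12.8% and 39.2%, the antisense shares 51.0% and 54.8%, and the genes with a tag 283 and 336. Of 31 genes with enough tags, 7 were higher and 8 lower. Under these filters of reads and length the shares over all genes were not computed, so the counts are not read as a result.

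Without tags over another gene of the strand, the body and intron ratios were 1.03 and 0.871, the antisense shares 43.1% and 40.02%, and Gm16953 stood at 0.887. Of 63 genes with enough tags, 7 were then higher and 10 lower. Without the 3 genes with most tags (Oip5os1, Gm16724 and Gm16953), the body, exon and intron ratios were 0.966, 1.63 and 0.900 and the density ratios 1.01 and 1.83. At 10 tags per gene 25 of 139 were higher and 26 lower, and at 50 tags 3 and 2 of 16. Past 1.5-fold there were 21 and 16 of 71 genes, past 3-fold 4 and 4. At these other limits, and without tags over another gene, the shares over all genes were not computed. The counts are therefore not read as a result.

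The following alternatives were chosen after the data had been seen. Without Oip5os1, the body and exon ratios were 1.01 and 1.62 and the density ratios 0.983 in WT and 1.67 in Mbnl1 KO. Without Oip5os1 and single-base tags, the body and exon ratios were 1.01 and 1.25 and the density ratios 1.35 and 1.72. Without both single-base tags and tags over another gene, the body, exon and intron ratios were 1.03, 1.62 and 0.897, the density ratios 2.36 and 4.26, and the antisense shares 40.4% and 38.2%. With only tags found once in the genome, single-base tags left out, the body, exon and intron ratios were 1.04, 1.59 and 0.899.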
